A study of Mus musculus with 8 samples.

Results

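The genes described here are 142 ubiquitin and proteasome genes of the mouse, out of 5736 genes in the expression table. They were chosen by symbol alone: the rows whose names begin as the ubiquitin-conjugating enzymes (*Ube2*), the RING-finger (*Rnf*) and tripartite motif (*Trim*) proteins, the cullins (*Cul*), the F-box (*Fbxo*, *Fbxl*, *Fbxw*) and Kelch-like (*Klhl*) adaptors, the ubiquitin-specific proteases (*Usp*) or the proteasome subunits (*Psm*), leaving out *Psmc3ip* and *Fbxo2*. The rule uses no measured value, although it was set with earlier results of these data known. A shared name does not prove a shared activity, since *Usp6nl* is not a protease and many *Trim*, *Rnf* and *Klhl* proteins have no ligase function known with certainty.

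The mRNA of fluorescence-sorted male germ cells was sequenced in 8 bulk libraries to follow spermatogonia from the undifferentiated state into differentiation. Undifferentiated Aal spermatogonia gave 2 libraries, A1 spermatogonia, the first differentiating type, gave 3, and the later A3 type gave 3. All mice were CD1:Uchl1-eGFP, a transgenic line of C57BL/6 origin outcrossed with CD-1, in which the *Uchl1* promoter drives EGFP, and EGFP-positive cells were sorted. The labels give the same treatment for all 3 groups: oral bis-(dichloroacetyl)-diamine, an inhibitor of retinoic acid (RA) synthesis that holds spermatogonia undifferentiated, at 100 µg per g of body weight from postnatal day 1, and on day 11 one 10 µl injection of RA (10 µg/µl) under the skin. The study takes Aal cells from before differentiation begins, A1 cells from 24 h after RA and A3 cells from day 14, whereas the labels give no age for a library. Testes of at least 5 pups were pooled for a cell preparation, and libraries came from 2 or 3 preparations, so that p-values measure the spread between preparations.

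Ubiquitin is a small protein that is activated by an E1 enzyme, passed to an E2 conjugating enzyme and joined to a target with the help of an E3 ligase, which picks the target. Cullins build ligases of many parts, with F-box or Kelch-like proteins as the exchangeable arm that binds the target, whereas RING-finger and tripartite motif proteins often act as single-chain ligases. Chains of ubiquitin send proteins to the 26S proteasome, a barrel (the 20S core) with a cap that unfolds them (the 19S particle), and deubiquitinases such as the Usp proteins remove ubiquitin again. In the testis the system is known for its part in cell division, in meiosis and in the removal of proteins and histones as sperm form.

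The libraries held between 18276164 and 27316451 reads, 34.0% to 34.4% of them in the 5736 genes, and the counting error at the median gene was between 4.9% and 5.9%. *Uchl1*, which drives the sorted reporter and encodes a deubiquitinase itself, had 4490 and 5230 FPKM (fragments counted for a gene, scaled by its length and by the library total) in Aal, 7270, 5060 and 4050 in A1, and 5570, 5280 and 5910 in A3. The germ cell gene *Dazl* lay between 303 and 437 FPKM in all 8 libraries. Of 20 listed markers of Sertoli cells, the somatic cells that nurse germ cells, 9 were in the table. Their summed level was 47.7 and 36.8 FPKM in Aal, 54.2 and 51.4 in A1 replicates 1 and 2, 369 in A1 replicate 3, and 353, 263 and 188 in A3, so that A1 replicate 3 stood apart from its group. Against Aal, 8 of the 9 were higher in A3 and *Trf* was lower. The 4 other lists of somatic cells with a marker in the table stayed at or under 10.2 FPKM in every library (2 of 7 Leydig markers up to 6.86, 3 of 6 myoid up to 6.53, 3 of 8 macrophage up to 10.2 and 4 of 7 endothelial up to 8.94), with A1 replicate 3 highest for the first 3. No marker of red blood cells or spermatids was in the table. In bulk samples, fewer cells of a type and less RNA per cell cannot be told apart.

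To show the regulatory sequence of members on which the results turn, promoter windows of 300 bases (250 before to 50 after the transcription start, RefSeq, GRCm38.p6) are printed for 3 genes that were higher after RA, a core proteasome subunit among them, and for 1 deubiquitinase that fell at each step. Capitals mark matches on either strand to CCAAT, to TTTGAA (the cell cycle genes homology region, CHR) and to TGANNNNGC (the core of the antioxidant response element, known from proteasome genes), and a run of capitals can hold matches that overlap or touch.

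Ube2c, chr2:164769679-164769978, + strand: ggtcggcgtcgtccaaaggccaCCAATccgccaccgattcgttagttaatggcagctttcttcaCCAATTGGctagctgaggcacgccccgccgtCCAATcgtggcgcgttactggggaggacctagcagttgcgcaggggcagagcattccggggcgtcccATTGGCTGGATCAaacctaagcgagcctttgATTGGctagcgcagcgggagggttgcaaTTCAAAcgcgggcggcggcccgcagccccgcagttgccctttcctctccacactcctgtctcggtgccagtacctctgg

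Ube2e1, chr14:18331795-18332094, - strand: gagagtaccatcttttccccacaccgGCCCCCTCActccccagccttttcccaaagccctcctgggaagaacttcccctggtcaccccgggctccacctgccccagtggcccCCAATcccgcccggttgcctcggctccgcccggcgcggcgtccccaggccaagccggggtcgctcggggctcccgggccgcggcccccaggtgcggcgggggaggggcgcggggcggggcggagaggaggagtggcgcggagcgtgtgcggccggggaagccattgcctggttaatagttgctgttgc

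Psma5, chr3:108256676-108256975, + strand: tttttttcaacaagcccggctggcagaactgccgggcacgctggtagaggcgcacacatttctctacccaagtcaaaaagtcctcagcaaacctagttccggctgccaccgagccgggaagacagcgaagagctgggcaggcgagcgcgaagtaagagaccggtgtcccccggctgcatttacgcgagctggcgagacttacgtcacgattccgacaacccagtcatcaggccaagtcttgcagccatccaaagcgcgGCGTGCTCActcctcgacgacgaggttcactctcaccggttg

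Usp10, chr8:119910110-119910409, + strand: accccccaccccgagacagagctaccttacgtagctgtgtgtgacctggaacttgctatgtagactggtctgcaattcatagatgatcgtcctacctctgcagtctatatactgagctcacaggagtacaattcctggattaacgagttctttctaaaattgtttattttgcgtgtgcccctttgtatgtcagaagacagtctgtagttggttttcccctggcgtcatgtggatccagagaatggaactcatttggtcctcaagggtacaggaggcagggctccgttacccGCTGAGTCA

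*Ube2c* held 6 matches to CCAAT and 1 each to the CHR and the antioxidant core, *Ube2e1* held 1 to CCAAT and 1 to the antioxidant core, and *Psma5* and *Usp10* held 1 each to the antioxidant core. Such letters are common. Of 32851 mouse promoter windows, 37.4% held CCAAT, 17.9% the CHR and 41.3% the antioxidant core, against 35.3%, 10.8% and 36.7% of 139 windows from 109 members. Of 17 windows from proteasome members, 35.3% held CCAAT (6 windows), 5.88% the CHR (1) and 47.1% the antioxidant core (8), and these shares were not tested. A match is a description of the sequence and not a site shown to be bound.

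Mean levels ran from 0.101 FPKM for *Psmb11* to 200 for *Psmb1*, and the proteasome was the most abundant family (the plot of mean levels by family). The median of the 20 proteasome genes was 74.7 FPKM, averaged over the 8 libraries, with *Psmb1* of the core highest. Cullins (3 genes, median 51.0), E2 enzymes (8, median 32.6) and Usp proteases (21, median 30.1) came next. Rnf (29, median 9.84), F-box (21, median 7.76) and Klhl genes (10, median 4.86) were lower, and the 30 *Trim* genes had a median of 1.41 FPKM. The families spread widely within themselves: *Trim28*, the corepressor of retroviral elements also called KAP1, stood at 161 FPKM, second of all members. The other leading members were *Ube2d3* (105 FPKM), *Rnf216* (102), *Usp19* (94.1), *Cul4b* (64.6), *Klhl21* (28.2) and *Fbxo9* (27.9). Of the 142 members, 29 averaged at least 50 FPKM, 74 at least 10 and 27 under 1.

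**Figure D1:**
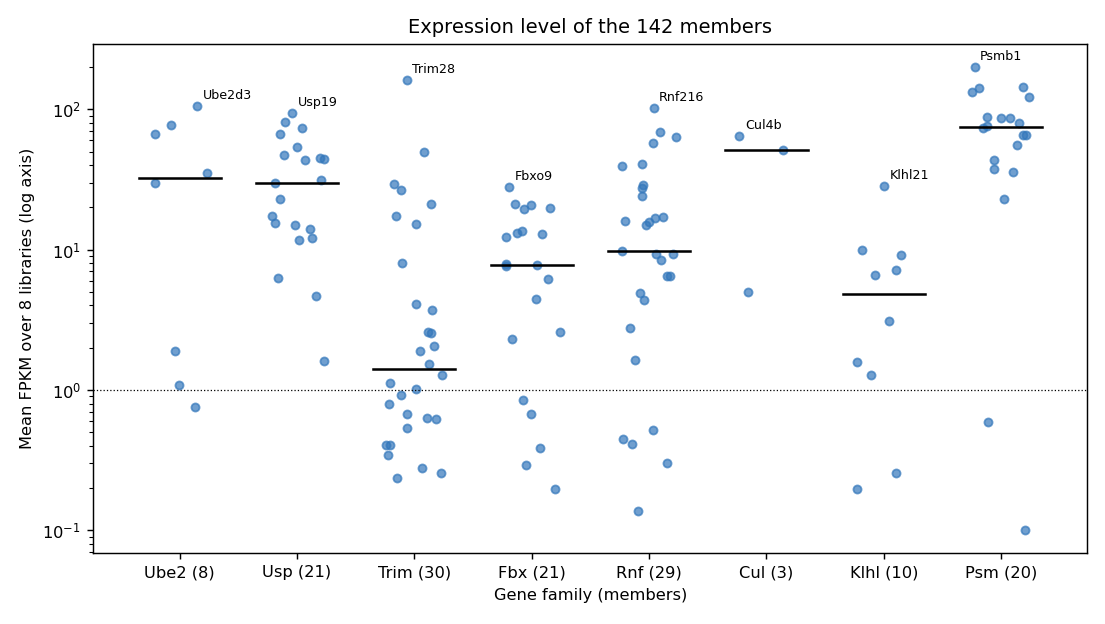
Mean FPKM of each of the 142 members over the 8 libraries, on a log axis, by family, with the family's number of genes in brackets, a bar at the family's median and the dotted line at 1 FPKM. The proteasome genes sit highest, with a median of 74.7 FPKM, and the Trim genes spread from 0.236 to 161 FPKM around a median of 1.41.

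Changes were measured as differences of log2(FPKM + 1) between groups and tested with limma over all genes that had at least 1 FPKM in at least 2 of the libraries compared. A member is said to have been called at an adjusted p of at most 0.01 and a log2 fold change beyond 1, and to have passed, risen or fallen at an adjusted p of at most 0.05 with any size. Of the 142 members, 119 were tested in at least 1 comparison, and 23 never reached the filter and averaged at most 0.758 FPKM. A gene near 1 FPKM could enter a comparison only through the group where it was high. *Ube2ql1*, *Trim5*, *Trim7*, *Trim47*, *Trim54*, *Trim65* and *Usp13*, and *Uba7* and *Peli3* of the wider pathway, were among those that did so against Aal. Their p-values and calls describe the values and are not independent support for a change. Of the 119, 20 were called at least once and 75 passed at least once, whereas 44 passed in none. The libraries of the 2 groups did not overlap for 64% of all genes tested in A1 against Aal, and for 61.7% of members. The shares were 38.1% and 41.7% in A3 against A1, and 73.1% and 79% in A3 against Aal. A lack of overlap, given below for single genes, is thus common and only describes the values.

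From Aal to A1, the step that RA begins, 10 of 115 tested members were called, which is 8.7% against 9.15% of all genes tested (4.19% higher and 4.97% lower). The 4 higher were *Ube2c*, *Rnf208*, *Trim54* and *Klhl13*, and the 6 lower were *Fbxo41*, *Ube2ql1*, *Trim12c*, *Psmd7*, *Rnf122* and *Trim5*. Of the members, 23 rose and 24 fell, 40.9% in all against 42% of all genes (21.4% higher and 20.6% lower), and the median member changed by 0.05 against 0.03 for all genes. Ubiquitin and proteasome genes moved about as often as genes in general. Without A1 replicate 3, the library high in Sertoli markers, 9 members were called and 43 passed. The count rested most on Aal replicate 2, without which 3 were called and 24 passed, and 6 were called without Aal replicate 1 or A1 replicate 2.

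From A1 to A3 a single member, *Rnf39*, was called, against 1.5% of all genes (0.479% higher and 1.02% lower), and 12 members rose and 13 fell. Those 25 were 21.7% of the members tested, against 19.4% of all genes (7.95% higher and 11.5% lower). *Rnf39* was not called without A1 replicate 1, A1 replicate 2, A3 replicate 1 or A3 replicate 3, and 2 members were called without A1 replicate 3. The members that passed were 11 without A1 replicate 2 and 10 without A3 replicate 2. Over the whole interval, A3 against Aal, 15 of 119 members were called (7 higher and 8 lower), 12.6% against 17.6% of all genes (7.87% higher and 9.69% lower). Of the members, 37 rose and 32 fell, 58% against 57.5% of all genes (29.8% higher and 27.7% lower), and 10 were called and 43 passed without Aal replicate 2. The 3 comparisons share libraries, so their values are given side by side and are not independent of each other. The counts of single families below stand beside these shares of all genes as a description.

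**Figure D2:**
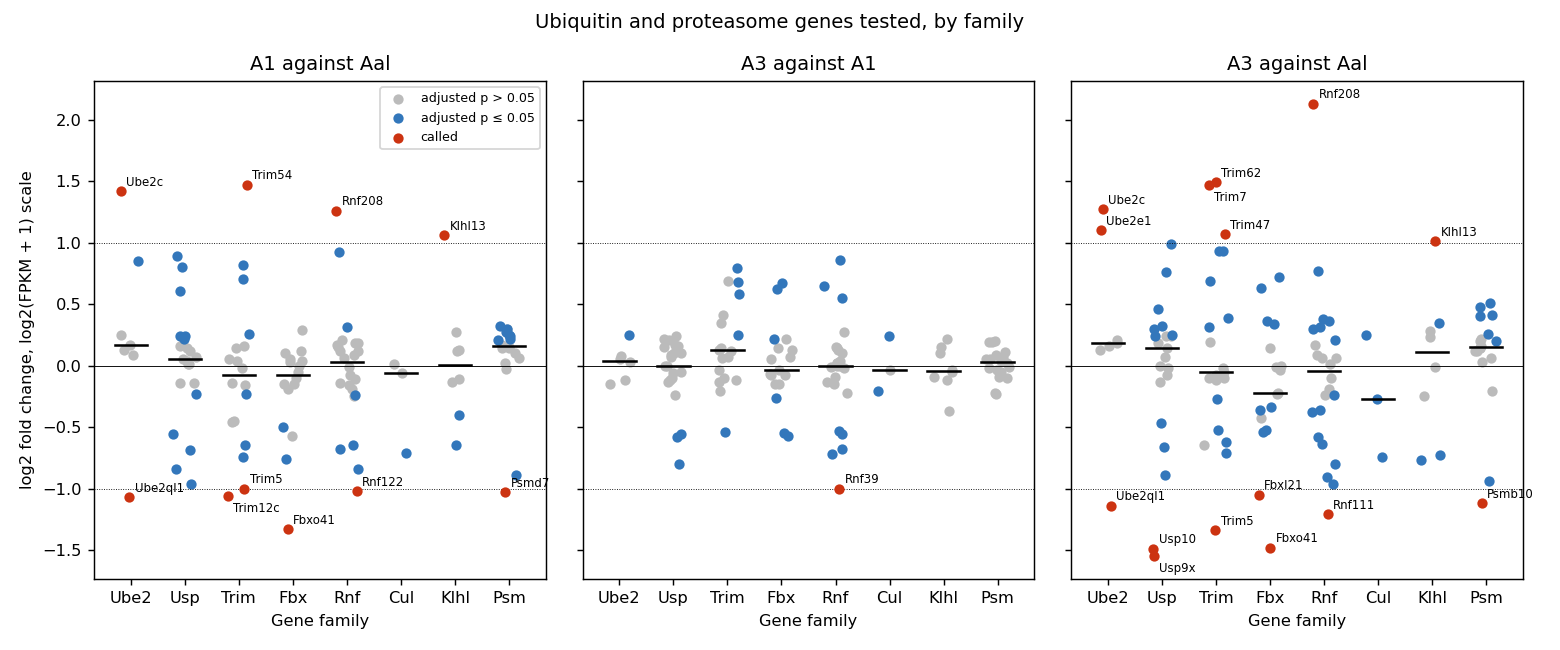
Log2 fold change on the log2(FPKM + 1) scale of each member tested, by family, in the 3 comparisons, with colour for members called, passed at adjusted p of at most 0.05, or neither. Of 115 members tested for A1 against Aal 10 were called, of 115 for A3 against A1 1, and of 119 for A3 against Aal 15.

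Of 7 E2 enzymes tested in A1 against Aal, 2 rose and 1 fell, in A3 as in A1, and *Ube2c* had the largest rise in A1. It encodes the E2 that serves the anaphase-promoting complex, the ligase that ends mitosis. Its level was 36.0 and 33.4 FPKM in Aal, 78.1, 107 and 101 in A1, and 60.6, 99.6 and 102 in A3. All differentiating libraries lay above both Aal libraries, and A3 replicate 1 lay below every A1 library. The log2 fold change was 1.42 ± 0.13 (SE) in A1 (limma, adjusted p = 0.000315) and 1.27 ± 0.20 in A3 against Aal (limma, adjusted p = 0.00089), and the second call was lost without Aal replicate 2. The gene (chr2:164595398-164604322, + strand, mm9) shares 592 exonic bases with *Tnnc2* on the other strand. Whether reads were counted by strand is not given in the sources used here, so for such pairs a part of the reads may belong to the partner. *Ube2e1*, an E2 that works with RING ligases, had 23.1 and 17.0 FPKM in Aal, 34.0, 38.1 and 37.8 in A1, and 45.2, 45.9 and 40.3 in A3. The 3 groups did not overlap. Its net log2 fold change in A3 was 1.1 ± 0.13 (limma, adjusted p = 0.00017), no longer called without Aal replicate 2, and most of it lay in the first step, 0.85 ± 0.13 (limma, adjusted p = 0.00174). The second step, 0.25, passed under 2 of 15 alternative settings only. *Ube2ql1*, an E2-like gene, went the other way, from 2.16 and 2.79 FPKM in Aal to between 0.388 and 0.995 in A1 and between 0.413 and 0.728 in A3, with no overlap between Aal and the rest (log2 fold change -1.07 ± 0.19 in A1, limma, adjusted p = 0.00337, a call lost without A1 replicate 2, without A1 replicate 3 and with the replicate block). It entered the tests against Aal through Aal alone, the group where it was high. Without either Aal replicate it was not tested, so its call rests on both. The abundant general E2 genes gave no passing test: *Ube2d3* had group means of 96.9, 106 and 110 FPKM, and *Ube2e3*, *Ube2g2* and *Ube2v2* did not pass either.

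Of the RING-finger genes, 24 were tested, of which 3 rose and 5 fell in A1 and 7 rose and 9 fell in A3 against Aal. *Rnf208* had the largest rise of the tested members over the whole interval on the log2(FPKM + 1) scale, whereas by the ratio of mean FPKM the rarer *Trim7* (6.42) and *Trim47* (5.05) came before it. This little-studied gene (chr2:25097775-25099782, + strand, mm9) went from 5.09 and 5.53 FPKM in Aal to 14.1, 17.5 and 11.4 in A1 and 23.3, 26.9 and 29.9 in A3. Each group lay wholly above the one before it. The log2 fold change was 1.26 ± 0.17 for the first step (limma, adjusted p = 0.00102), 0.86 ± 0.15 for the second (limma, adjusted p = 0.00789) and 2.13 ± 0.12 in all (limma, adjusted p = 1.15e-05), a ratio of 5.03. The net call held under all 14 alternatives, and the call of the first step was lost without either Aal replicate. *Rnf111*, the ligase Arkadia of transforming growth factor beta signalling that also recognises SUMO chains, stepped down instead. It had 22.2 and 24.5 FPKM in Aal, 13.8, 14.9 and 14.9 in A1, and 9.90, 9.63 and 9.08 in A3. No group overlapped another, and the log2 fold change was -0.65 ± 0.08, then -0.56 ± 0.08, and -1.21 ± 0.09 in all (limma, adjusted p = 3.21e-05 for the last).

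Other RING-finger genes passed at one of the steps. *Rnf39* fell between A1 and A3, from 8.74, 8.96 and 8.21 to 3.76, 4.08 and 3.59 FPKM, after 7.73 and 6.97 in Aal. Its A3 libraries lay at about the same level and below all others (log2 fold change -1.0 ± 0.10 against A1, limma, adjusted p = 0.000969), just beyond the fold threshold, so that 5 of 15 alternatives lost the call while all kept the test passed. *Rnf2*, the catalytic subunit of Polycomb repressive complex 1, had 34.4 and 30.2 FPKM in Aal, 30.4, 34.6 and 39.0 in A1, and 19.7, 23.1 and 20.9 in A3. Aal and A1 overlapped and A3 lay below both (-0.68 ± 0.10 against A1, limma, adjusted p = 0.00448). *Rnf180* had means of 21.0, 17.6 and 10.3 FPKM, without overlap of the groups, and a second step of -0.72 ± 0.09 (limma, adjusted p = 0.00214), and *Rnf219* fell from 11.1 to 7.30 FPKM on average at that step. *Rnf122* changed at the first step, from 4.59 and 5.19 FPKM to 2.53, 1.75 and 1.53, and then held 2.02, 2.19 and 2.17 in A3 (-1.02 ± 0.17 in A1, limma, adjusted p = 0.00313, a call lost under 6 of 13 alternatives).

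*Rnf157*, a ligase known from neurons, fell and came back, with 30.6 and 30.9 FPKM in Aal, 20.6, 15.6 and 14.6 in A1, and 29.4, 25.1 and 26 in A3. The A1 libraries lay below all the others (-0.84 ± 0.14, limma, adjusted p = 0.0026, then 0.65 ± 0.13, limma, adjusted p = 0.0126), and the return did not pass without A1 replicate 2. *Rnf5*, a ligase of the endoplasmic reticulum membrane, rose at the second step, from 7.57 ± 1.17 to 11.6 ± 1.55 FPKM (SD, n = 3 each). *Rnf4*, a SUMO-targeted ligase, rose from 58.2 to 72.4 FPKM on average in A1 and stood at 71.9 in A3. *Rnf25* fell from 38.3 to 23.6 FPKM and stayed at 24.3. *Rnf144a*, which belongs to the RING-between-RING class, had 2.19 and 2.43 FPKM in Aal, 4.43, 4.10 and 7.92 in A1, and 5.78, 4.33 and 4.0 in A3. Its highest value fell in A1 replicate 3, the library with 369 FPKM of summed Sertoli markers, although replicates 1 and 2 also lay above Aal (0.92 ± 0.24, limma, adjusted p = 0.0203). The part of the Sertoli transcripts in this result was not tested.

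The tripartite motif genes were mostly rare, and 21 of 30 were tested, of which 8 rose and 5 fell in A3 against Aal. *Trim62* rose at both steps, from 3.60 and 3.82 FPKM in Aal through 5.99, 6.56 and 7.53 in A1 to 12, 12.5 and 12.2 in A3. The groups did not overlap, and the net log2 fold change of 1.49 ± 0.11 (limma, adjusted p = 2.41e-05) was called under all 14 alternatives. *Trim54*, a muscle RING-finger gene, rose from 0.622 and 0.988 FPKM in Aal to 3.09, 4.8 and 4.14 in A1 and stood at 2.62, 2.31 and 2.33 in A3. Every A1 library was above every A3 library, which were in turn above Aal (1.47 ± 0.19 in A1, limma, adjusted p = 0.000897, lost as a call without either Aal replicate). The gene entered that test through A1 alone. The fall from A1 to A3 passed under 5 of 14 alternatives only. The neighbours *Trim47* (chr11:115967066-115988524) and *Trim65* (chr11:115983160-115992442), which share 225 exonic bases on one strand (- strand, mm9), rose together at the second step. *Trim47* had 0.340 and 0.417 FPKM in Aal, 0.725, 0.700 and 1.02 in A1, and 2.16, 1.98 and 1.59 in A3. *Trim65* went from 0.421 and 0.248 through 0.599, 0.672 and 0.807 to 1.51, 1.69 and 1.42 FPKM in the same order. In both genes each group lay above the one before, with log2 fold changes from A1 to A3 of 0.68 ± 0.13 (limma, adjusted p = 0.0126) and 0.58 ± 0.12 (limma, adjusted p = 0.0127), and *Trim47* was called higher in A3 against Aal (1.07 ± 0.14, limma, adjusted p = 0.000297). Both genes entered the test against Aal through A3 alone, at levels near the filter. Reads that fall in the shared exon could be counted for either.

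*Trim7*, named for binding glycogenin, differed widely within A1. It had 0.494 and 0.516 FPKM in Aal, 0.798, 0.849 and 4.16 in A1, and 4.48, 2.64 and 2.61 in A3. All A1 and A3 libraries lay above Aal, with A1 replicate 3 and A3 far above A1 replicates 1 and 2. The summed Sertoli markers were split at the same place, though not in the same order (A1 replicate 3 and A3 at 188 FPKM or more, the rest at 54.2 or less). The net log2 fold change was 1.47 ± 0.20 (limma, adjusted p = 0.000395), and the part of Sertoli transcripts in it was not tested. *Trim7* entered that test through A3 alone. The close relatives *Trim5*, *Trim34b* and *Trim12c* stand side by side on chromosome 7 and encode proteins of the family that restricts retroviruses. Reads could be split between these paralogues, so their values are uncertain. *Trim5* had 1.89 and 2.19 FPKM in Aal (114 and 137 reads), 0.244, 0.646 and 0.702 in A1, and 0.550, 0.0179 and 0.0952 in A3, where replicates 2 and 3 held 1 and 6 reads. *Trim12c* had 6.24 and 5.61 FPKM in Aal, 3.17, 1.86 and 2.08 in A1, and 1.84, 4.83 and 4.23 in A3. Both lay lower in every A1 library than in Aal (limma, adjusted p = 0.00325 and 0.00344), calls that 2 of 11 alternatives lost for *Trim5*, without A1 replicate 1 among them, and 4 of 14 for *Trim12c*, without either Aal replicate or A1 replicate 2 and in the fit on all 8 libraries. *Trim5* entered the test through Aal alone, where it was high. It was not tested without either Aal replicate or with the filter of 5 FPKM, which leaves 11 alternatives and not 14. *Trim12c* did not pass in A3 against Aal. Among the abundant *Trim* genes, *Trim28* rose from 139 ± 8.73 FPKM (SD, n = 2) in Aal to 183 ± 14.2 (n = 3) in A3 (0.39 ± 0.08, limma, adjusted p = 0.00485), and *Trim37*, a ligase of centrosome biology, rose from 42.7 to 51.1 FPKM in A1. *Trim71*, the stem cell gene lin-41, had means of 29.5, 30.4 and 27.8 FPKM and passed in no comparison.

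Of 16 F-box genes tested in A1 against Aal 3 fell and 13 did not pass, and of 17 in A3 against Aal 4 rose and 6 fell. *Fbxo41*, best known from neurons, had the largest fall of the tested members in A1 on the log2(FPKM + 1) scale, with a ratio of mean FPKM of 0.374 against 0.26 for *Trim5*, 0.269 for *Ube2ql1* and 0.356 for *Trim9*. It went from 22.3 and 25.5 FPKM in Aal to 10.6, 8.64 and 7.60 in A1 and 8.93, 7.73 and 7.19 in A3. A1 and A3 overlapped and lay below Aal, with log2 fold changes of -1.33 ± 0.14 (limma, adjusted p = 0.00042) and -1.48 ± 0.12 (limma, adjusted p = 3.35e-05) against it. *Fbxl21*, which targets the cryptochromes of the circadian clock, fell over the same interval from 3.66 and 4.71 through 2.42, 2.56 and 3.03 to 1.75, 1.55 and 1.22 FPKM. The groups did not overlap (-1.05 ± 0.16 in all, limma, adjusted p = 0.000641, a call lost under 4 of 13 alternatives). *Fbxw5*, an adaptor of cullin ligases, had 13.4 and 16.9 FPKM in Aal, 15.8, 15.8 and 17.1 in A1, and 22.9, 25.1 and 28.8 in A3, so that it moved at the second step (0.62 ± 0.09, limma, adjusted p = 0.00426). Smaller falls were measured for *Fbxw17* (8.87 to 4.82 FPKM in A1), *Fbxl7* (2.79 to 1.55 FPKM from A1 to A3) and *Fbxo9* (29.3 to 24.3 FPKM from A1 to A3). Of other abundant F-box genes, *Fbxo31* fell from 22.9 in Aal to 17.9 FPKM in A3, and *Fbxl14* (13.5, 13.9 and 13 FPKM) and *Fbxw8* (20.1, 20.1 and 22.3) passed in no comparison.

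The paired cullins *Cul4a* and *Cul4b*, which build the same kind of ligase on the adaptor DDB1, moved in opposite directions in A3. *Cul4a* had 48.3 and 46.7 FPKM in Aal, 49.2, 47.8 and 46.4 in A1, and 60.1, 54.9 and 55.0 in A3. The X-linked *Cul4b* had 73.2 and 67.0 in Aal, 65.3, 66.6 and 70.2 in A1, and 59.4, 60.2 and 54.5 in A3. In each gene Aal and A1 overlapped and the A3 libraries lay outside them. The second step was 0.24 ± 0.06 for *Cul4a* (limma, adjusted p = 0.0247) and -0.21 ± 0.06 for *Cul4b* (limma, adjusted p = 0.0426), and neither is secure, since the test passed under 10 and 8 of 15 alternatives. *Cul9* fell in A1, from 7.53 ± 0.159 FPKM (SD, n = 2) to 4.22 ± 0.0727 (n = 3), with -0.71 ± 0.11 (limma, adjusted p = 0.00184). Of 8 Kelch-like genes tested, 1 rose and 2 fell in A1, and 2 rose and 2 fell in A3 against Aal. Among them *Klhl13*, the X-linked adaptor of cullin-3 that acts on Aurora B in mitosis, had the largest rise. Its values were 4.78 and 4.58 FPKM in Aal, 10.1, 11.8 and 10.7 in A1, and 11.1, 9.86 and 10.4 in A3, about the same in A1 and A3 and far above Aal (1.06 ± 0.11 in A1, limma, adjusted p = 0.000388, called under all 14 alternatives, and 1.01 ± 0.11 in A3, a call lost with median-ratio scaling, without Aal replicate 2 and without A3 replicate 1). *Klhl23* had 6.61 and 5.79 FPKM in Aal, 5.72, 5.18 and 10.5 in A1, and 9.69, 7.74 and 6.06 in A3, with its 3 highest values in the 3 libraries with the most Sertoli transcripts, and passed in no comparison. *Klhl17* rose from 8.6 FPKM on average in Aal to 11.3 in A3, and *Klhl29* and *Klhl35* were lower in A3 than in Aal (means of 0.997 against 2.40 and 0.911 against 2.16 FPKM).

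All 21 Usp genes were tested, of which 6 rose and 5 fell in A1 and 7 rose and 5 fell in A3 against Aal. On the log2(FPKM + 1) scale the largest falls of the tested members over the whole interval belonged to *Usp9x* and *Usp10*, whereas by the ratio of mean FPKM the rarer *Trim5* (0.108), *Ube2ql1* (0.234) and *Trim9* (0.302) fell further than these (0.331 and 0.323). *Usp9x* (chrX:12648624-12759008, + strand, mm9), an X-linked protease needed in developing germ cells, had 54.1 and 52.9 FPKM in Aal, 25.7, 26.8 and 28.4 in A1, and 19.5, 17.8 and 15.8 in A3. *Usp10* (chr8:122434260-122481460, + strand, mm9), whose known targets include p53, had 19 and 21.5 FPKM, then 12.6, 12.4 and 11.4, then 7.03, 6.11 and 6.51. Both went down at each step without overlap. The net log2 fold change was -1.55 ± 0.09 for *Usp9x* (limma, adjusted p = 1.39e-05) and -1.49 ± 0.11 for *Usp10* (limma, adjusted p = 2.81e-05), and both were called under all 14 alternatives. *Usp11* (26.3 and 27.2 FPKM in Aal) stood at 18.3, 11.8 and 14 in A1 and 16.3, 12.9 and 13.0 in A3. Its A1 and A3 libraries overlapped below Aal (-0.84 ± 0.16 in A1, limma, adjusted p = 0.00499). *Usp28*, a protease of the DNA damage response, fell from 87.4 FPKM on average in Aal to 74.6 in A1 and 63.3 in A3.

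Among the Usp genes that rose, *Usp1*, which removes ubiquitin from FANCD2 and PCNA, had 28.1 and 22.9 FPKM in Aal, 48.3, 45.8 and 49.6 in A1, and 53.1, 51.4 and 49.6 in A3. *Usp39*, a spliceosome protein that has lost protease activity, had 36.9 in both Aal libraries, 57.1, 55.3 and 57.8 in A1, and 65.5, 63.2 and 60.8 in A3. In both genes every differentiating library lay above Aal, and the change in A1 was 0.89 ± 0.09 (limma, adjusted p = 0.00043) and 0.61 ± 0.06 (limma, adjusted p = 0.000321). *Usp13* rose and fell back, with 0.919 and 0.952 FPKM in Aal, 2.39, 2.45 and 2.25 in A1, and 1.76, 0.993 and 1.16 in A3. The A1 libraries lay above all others (0.80 ± 0.12, limma, adjusted p = 0.0019), and the fall that followed passed under 9 of 14 alternatives. Against Aal the gene entered the test through A1 alone. *Usp44*, a protease of the mitotic checkpoint, fell from 6.69 to 4.23 FPKM. No Usp gene was called in A1 against Aal by limma, against 9.15% of all genes tested, and 11 passed (52.4%, against 42%). An unadjusted p under 0.05 was found for 11, and 1 was called by voom on recovered reads. The abundant *Usp19* (means of 92.9, 96.3 and 92.6 FPKM), *Usp5* and *Usp24* passed in no comparison.

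**Figure D3:**
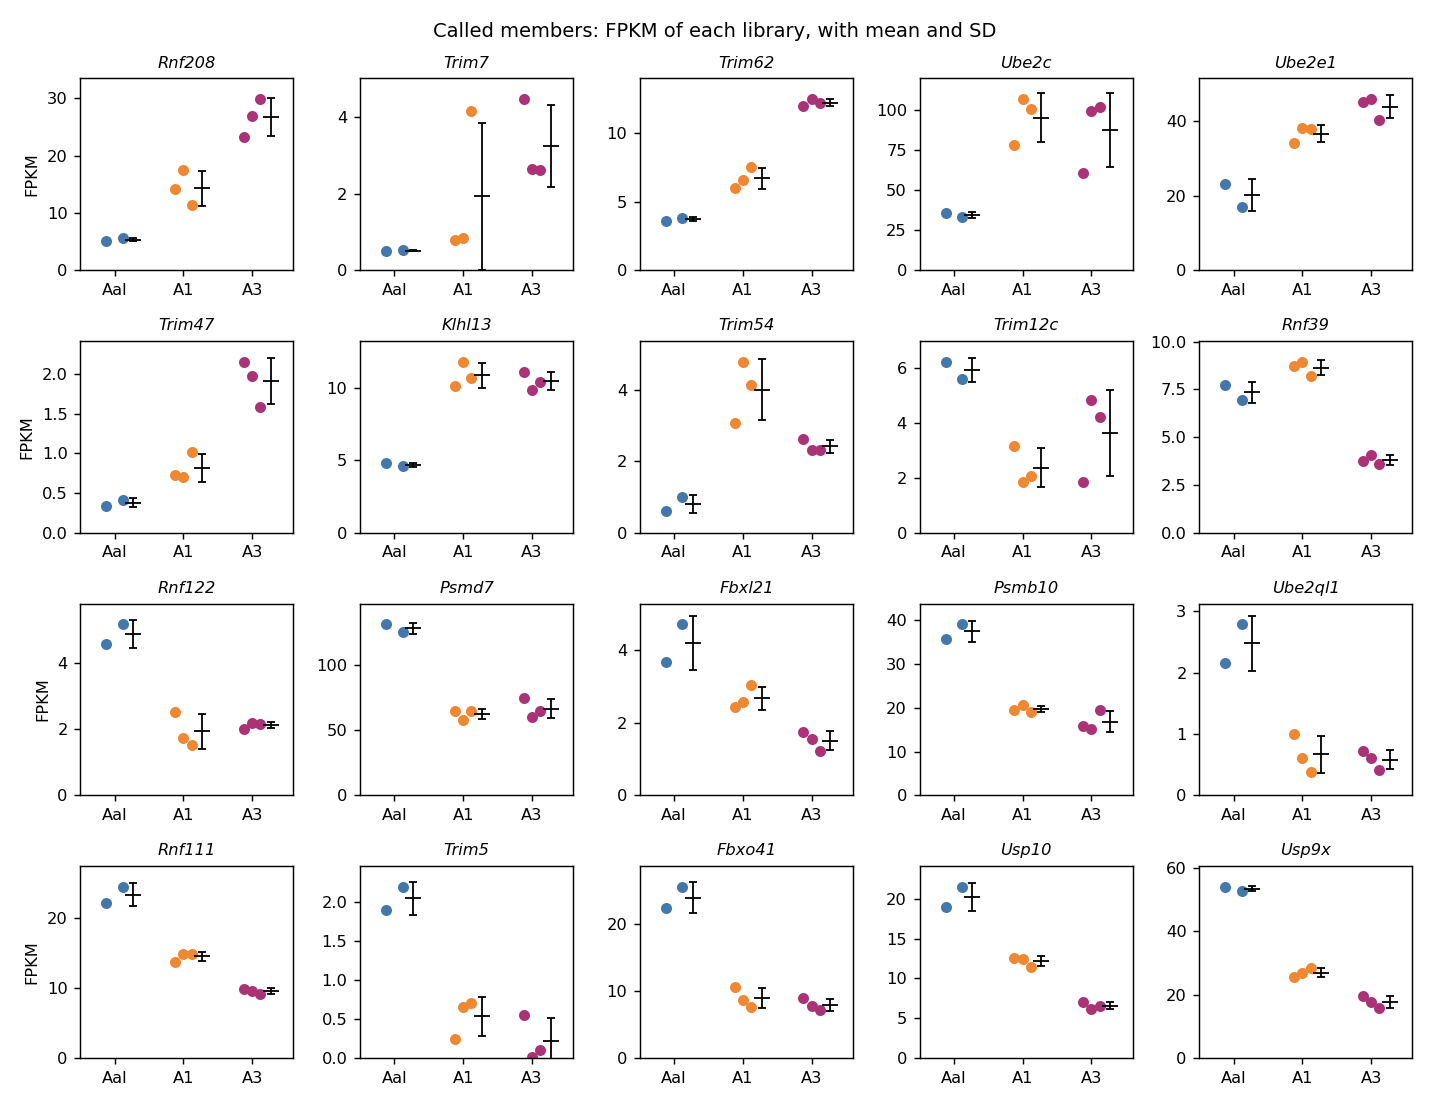
FPKM of each library (points) with the mean and SD of each group (bars, n = 2 for Aal, 3 for A1 and 3 for A3) for the 20 members called in at least 1 comparison, each on its own axis from 0, where a bar that would reach below 0 is clipped. Rnf208, Trim62 and Ube2e1 climb from group to group, Usp9x, Usp10, Rnf111 and Fbxl21 step down, and Trim7 is as high in A1 replicate 3 as in A3.

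Of the 20 proteasome genes 18 were tested, and *Psmd7* and *Psmb10* fell while the rest changed little (the plot of proteasome genes by library). *Psmd7* (chr8:110104281-110112382, - strand, mm9) encodes a subunit of the 19S lid that pairs with the deubiquitinase *Psmd14*. It had 131 and 125 FPKM in Aal, 64.4, 58.0 and 64.2 in A1, and 74.4, 60.3 and 64.5 in A3. Its level in A1 and A3 overlapped and was about 0.485 and 0.518 of that in Aal (log2 fold change -1.03 ± 0.07 in A1, limma, adjusted p = 0.000173, and -0.94 ± 0.09 in A3, limma, adjusted p = 8.61e-05). The partner *Psmd14* had 61.6 and 53.3 FPKM in Aal, 68.0, 69.3 and 71.2 in A1, and 63.2, 67.6 and 70.2 in A3, so that it did not fall with it. *Psmb10*, the inducible core subunit of the immunoproteasome, had 35.8 and 39.1 FPKM in Aal, 19.5, 20.6 and 19.1 in A1, and 15.8, 15.1 and 19.6 in A3. A3 replicate 3 lay within the A1 range and the other A3 libraries below it, all far under Aal (-0.89 ± 0.07 in A1, limma, adjusted p = 0.000251, and -1.12 ± 0.12 in A3, limma, adjusted p = 0.000112). Both falls passed under every alternative run, and the A1 call of *Psmd7* was lost only without A1 replicate 2, at -0.99. *Psmb8*, another immunoproteasome subunit, had 1.35 and 0.716 FPKM in Aal and between 0.130 and 0.766 in the other libraries, on 4 to 40 reads, and *Psmb11*, the thymus subunit, stayed under 0.206 FPKM. Neither reached the filter.

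The changes of the other 16 tested proteasome genes, which are what is left once the pair that fell is set aside, were small. In A1 against Aal 7 of them rose (*Psma5*, *Psmb1*, *Psmc4*, *Psmc5*, *Psmd6*, *Psmd14* and the assembly chaperone *Psmg2*), the other 9 did not pass, against 21.4% of all genes that rose, and the median of all 18 was 0.16 against 0.03 for all genes. *Psma5*, a ring subunit of the core, had 70.8 in both Aal libraries, 86.6, 88.8 and 89.6 in A1, and 93.3, 106 and 104 in A3, without overlap of the groups (0.32 ± 0.05 and 0.51 ± 0.07 against Aal, limma, adjusted p = 0.0034 and 0.000619). *Psmc4*, an ATPase of the cap, had 71.9 and 73.6 FPKM in Aal, 88.4, 84.2 and 80.0 in A1, and 100, 92.2 and 98.0 in A3, also without overlap. *Psmb5*, which carries a proteolytic site, had 30.3 and 27 FPKM in Aal, 40.7, 39.0 and 27.6 in A1, and 38.6, 40.0 and 42.6 in A3. A1 replicate 3 lay within the Aal range, and the gene passed in A3 against Aal alone (0.48 ± 0.08, limma, adjusted p = 0.00119). Against Aal, A3 also had higher *Psmc5*, *Psmd1* and *Psmd6*, 6 rises in all.

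The number of these small rises depended on the scaling and on single libraries, but *Psma5* passed under all 14 alternatives in A1 and in A3 against Aal. In A3 against Aal *Psmb5* and *Psmc4* also passed under all 14, *Psmd6* under 13, *Psmc5* under 11 and *Psmd1* under 6. The rises in A1 other than *Psma5* passed under 6 to 10 of 14. In A1 against Aal, 2 of the 18 rose with median-ratio scaling (median 0.11), 1 with quantile normalisation (median 0.04) and 1 with no mean-variance trend. Likewise 3 rose without A1 replicate 1, and 1 rose without Aal replicate 2 or without A1 replicate 2. In A3 against Aal the median of the 18 was 0.15, with 3 rises without Aal replicate 2, and it was -0.01 under quantile normalisation, where 4 rose and *Psmd4* and *Psme1* fell beside *Psmd7* and *Psmb10*. From A1 to A3 no proteasome gene passed by limma on log2(FPKM + 1), 3 had an unadjusted p under 0.05 and voom passed 0. Other settings of that step passed a few: 2 rose and *Psme1* fell in the fit on all 8 libraries, *Psme1* fell under quantile normalisation, 1 rose without A3 replicate 1, and *Psme1* and *Psmb10* fell without A3 replicate 3. *Psma1*, *Psma2*, *Psma7*, *Psmd4*, *Psmd5*, *Psmd12* and the activator subunit *Psme1* passed in none of the 3 comparisons by limma on log2(FPKM + 1), with *Psme1* at means of 127, 129 and 110 FPKM.

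**Figure D4:**
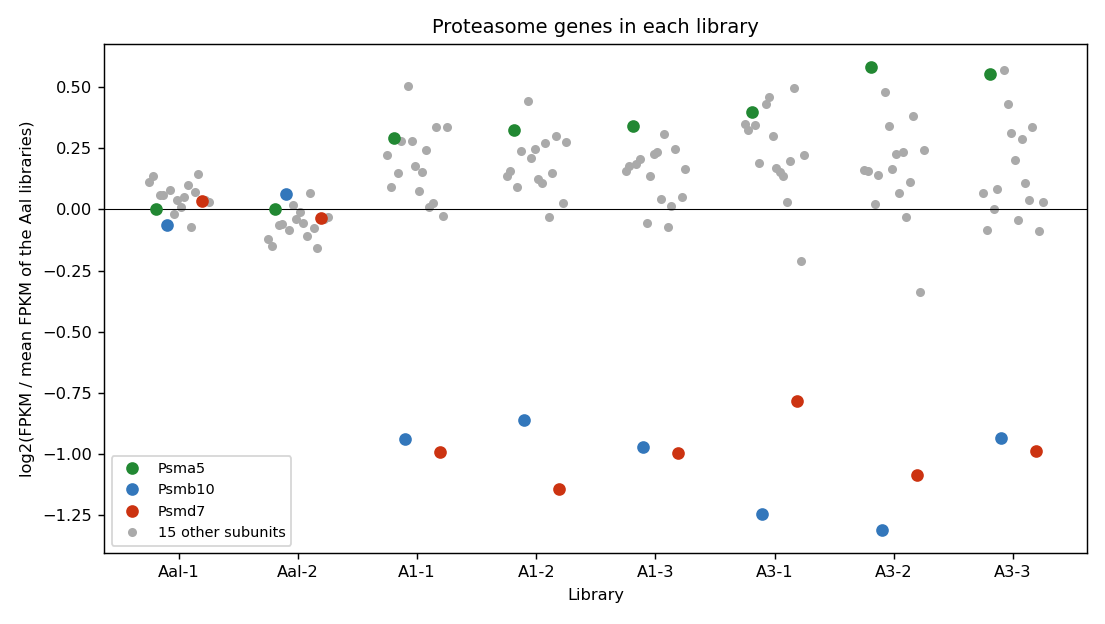
Level of each tested proteasome gene in each library, as log2 of its FPKM over the mean FPKM of the 2 Aal libraries, with Psmd7, Psmb10 and Psma5 in colour and the others in grey. Psmd7 and Psmb10 lie far below the rest in all A1 and A3 libraries, and Psma5 rises to a mean of 101 FPKM in A3.

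Lists of members by function gave mixed directions. Of 8 tested members with a known part in the cell cycle, 5 rose in A1 and in A3 against Aal (*Ube2c*, *Klhl13*, *Usp1*, *Trim37* and *Rnf4*), *Usp44* fell, and *Usp37* and *Klhl21* did not pass, with a median of 0.28 in A1. Of all genes tested, 21.4% rose in A1 and 29.8% in A3 against Aal, and 20.6% and 27.7% fell, and the counts of these short lists stand beside those shares as a description. Of 11 members that act on chromatin or DNA damage, 4 rose in A3 against Aal (*Usp1*, *Usp7*, *Trim28* and *Cul4a*), 4 fell (*Rnf2*, *Rnf40*, *Usp28* and *Cul4b*) and 3 did not pass (*Trim24*, *Trim33* and *Ube2v2*). The 3 tested members tied to SUMO or NEDD8 were split between *Rnf4* and *Usp39*, which rose, and *Rnf111*, which fell. Of 6 members known from germ cells, *Trim36* rose in A1 (1.33 to 3.11 FPKM on average) and *Usp9x* fell, while *Trim71*, *Usp2*, *Fbxo15* and *Cul4a* did not pass at that step.

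Of other genes in the pathway, listed with earlier results of these data known, 61 were in the table. Those named here and in the next paragraph include the called ones, picked by their values, with others as examples. Of 7 E1 enzymes tested, *Uba1* (115 to 137 FPKM over all libraries) rose in A1, *Uba7*, the E1 of the interferon-induced modifier ISG15, fell from 1.57 to 0.561 FPKM on average, and 3 rose and 1 fell in A3 against Aal. Among 5 genes that encode ubiquitin or a relative, *Sumo2* (108 and 85.8 FPKM in Aal, 161, 138 and 146 in A1) and *Nedd8*, the modifier that activates cullins, rose in A1. *Cdc20*, which activates the anaphase-promoting complex that *Ube2c* serves, had 41.0 and 32.8 FPKM in Aal, 77.2, 95.8 and 86.6 in A1, and 56.0, 88.7 and 95.1 in A3. As for *Ube2c*, A3 replicate 1 lay below every A1 library and above Aal (1.21 ± 0.12 in A1, limma, adjusted p = 0.00037). Of the other 4 measured parts of that complex, *Anapc16* fell in A1 (24 to 15.9 FPKM) and *Anapc2* rose in A3 (70.6 to 83.1 FPKM from A1), while *Anapc10* and *Cdc16* passed in no comparison.

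Other cullin partners and ligases held a few large changes. Of 6 genes listed as adaptors or partners of cullins, *Cand2* (5.29 to 10.8 FPKM) and *Ccnf*, cyclin F (44.0 to 73.2 FPKM), rose in A1. *Uhrf1*, a RING ligase that maintains DNA methylation, had 51.3 and 45.3 FPKM in Aal, between 110 and 112 in A1 and between 102 and 125 in A3 (1.19 ± 0.07 in A1, limma, adjusted p = 0.000127). Of 17 tested ligases on the list with it, 6 rose and 2 fell in A1, and *Peli2* and *Siah1a* were called lower and *Peli3* and *Uhrf1* higher in A3 against Aal. *Peli2* stepped down from 13.9 and 14.9 FPKM through 9.37, 8.45 and 7.96 to 4.8, 4.13 and 4.18 with no overlap. Of 6 HECT ligases, *Trip12* fell from 220 ± 0.694 FPKM (SD, n = 2) to 125 ± 4.18 (n = 3) in A1 and stood at 120 ± 5.78 (n = 3) in A3. The list was mixed in A3 against Aal, where *Hace1* and *Arel1* rose, *Trip12*, *Huwe1* and *Herc4* fell and *Wwp2* did not pass. Of 8 deubiquitinases outside the Usp family, *Otub1* and *Zranb1* rose and *Otud1* fell in A3 against Aal, and of 4 proteasome cofactors *Nfe2l1*, the factor that switches on proteasome genes, rose from 80.6 to 92.9 FPKM. The signalosome subunits *Cops3* and *Cops4* had means between 55.4 and 68.5 FPKM and passed in no comparison.

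Of the 111 members tested at both steps, 3 rose at each (*Rnf208*, *Trim62* and *Ube2e1*), 4 fell at each (*Usp9x*, *Usp10*, *Rnf111* and *Fbxl21*), 2 rose and then fell (*Trim54* and *Usp13*) and *Rnf157* fell and then rose. A further 18 rose and 16 fell at the first step alone, 5 rose and 7 fell at the second alone, and 55 passed at neither. The second step rested on fewer secure genes: 9 of its 25 members (*Rnf208*, *Trim62*, *Fbxw5*, *Usp10*, *Usp9x*, *Rnf111*, *Rnf180*, *Rnf2* and *Rnf39*) passed under every alternative in which they were tested, against 26 of 47 for A1 against Aal and 40 of 69 for A3 against Aal.

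Positions were found for 138 members in the GENCODE M1 annotation of mm9, and they lay on chromosomes 1 to 18 and on X. The X-linked members were *Usp9x*, *Usp11*, *Cul4b* and *Klhl13*, of which the first 3 fell and *Klhl13* rose in A3 against Aal. For 39 members an exon overlapped one of another gene, 11 of the 20 called ones among them (*Ube2c*, *Ube2e1*, *Rnf208*, *Trim5*, *Trim7*, *Trim12c*, *Trim47*, *Trim54*, *Klhl13*, *Usp9x* and *Usp10*), by 9 bases for *Usp9x* and 718 for *Ube2e1*. Among the 23 members under the filter, *Trim75*, chosen here after its values were seen, had 1 read in each Aal library, 24, 28 and 28 reads in A1 and 7 in each A3 library, or at most 0.612 FPKM, a level at which no test was made.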

How the data were processed

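Messenger RNA of sorted spermatogonia was sequenced (TruSeq Stranded mRNA, single-end reads of 75 bp) in 8 libraries, grouped by sample title. Adapters were cut with cutadapt 1.9 by the authors, who dropped reads below a quality of 20, aligned the rest to mm9 with STAR 2.5.2b and counted them per gene with featureCounts. Values for 5736 genes were deposited as FPKM. The annotation, the use of strand and how counts became FPKM are not given in the sources used here.

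Values were tested as log2(FPKM + 1), which understates changes of low genes, with limma 3.58.1 in R 4.3.3 (eBayes with a mean-variance trend, two-sided), for each pair of groups on its own libraries. Genes with at least 1 FPKM in at least 2 libraries were tested, with Benjamini-Hochberg adjustment over all of them. Whole reads recovered from the FPKM steps rebuilt 99.8% of values within a relative 1e-06 and gave library totals, counting errors and a voom alternative. The test and the recovery were tested on simulated data. Replicates differed by a chi-square of 5.8 to 22.3 per gene, so no library was a copy of another. Errors are SE for fold changes and SD for levels.

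Members and lists were chosen with earlier results of these data known. The text names called members, the 8 largest passing rises and falls of a comparison with 5 FPKM or more on average in the group where they were higher, the 2 highest members of a family, all proteasome genes, listed members, *Uchl1* and called pathway genes, with others given as examples. Alternatives were another pseudocount, filters, scalings and thresholds, a fit on all 8 libraries, no trend, voom, a block on the replicate number and each replicate left out in turn. Promoters are from RefSeq (GRCm38.p6), a build other than that of the positions (mm9). Genes absent from the table were not analysed here.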

Additional observations from a re-analysis of the deposited data

How the results depend on the processing

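No passing member changed direction under any alternative that was run. Members called in A1 against Aal (10) fell to 6 with a filter of 5 FPKM and ranged from 3 (without Aal replicate 2) to 10 when a replicate was left out. Members that passed there (47) were 30 at an adjusted p of at most 0.01, and 24 to 43 without 1 replicate. Called members in A3 against A1 (1) were 0 under quantile normalisation, 2 with voom and 0 to 2 without 1 replicate. Members that passed there (25) were 9 at an adjusted p of at most 0.01, 16 with the replicate block and 10 to 26 without 1 replicate, the lowest without A3 replicate 2. Called members in A3 against Aal (15) were 24 with a pseudocount of 0.1 FPKM, 25 with voom and 10 to 16 without 1 replicate, and those that passed (69) were 43 to 75. For single passing members, the pass was kept in 537 gene and setting pairs in A1 against Aal. It was kept in 290 pairs in A3 against A1 and in 848 in A3 against Aal. In the same order, the pass was lost in 103, 78 and 93 pairs, with the direction kept. These pairs count passes only, so a call that was lost while the test still passed is among those kept. Where 1 Aal library was left, it was assumed to vary like the others.

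Replicate numbers are shared by the groups, but the labels state no pairing, so the block was run as an alternative only. Same-numbered libraries did not deviate together (correlations of -0.329 to 0.057, and 0 of 6 A1 and A3 libraries correlated best with their own number). With 2 or 3 libraries in a group, such correlations cannot exclude a pairing. With the replicate block 9 members were called and 44 passed in A1 against Aal, 1 was called in A3 against A1, and 15 were called and 69 passed in A3 against Aal. The 2 Aal libraries limit the error of both comparisons with Aal, and members at 1 to 2 FPKM rest on few reads.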
